A study of Homo sapiens with 6 samples.

Results

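The 10 genes described here encode proteins that coat lipid droplets, make the triglyceride stored in them or take it apart again. They are the lipases LIPE, PNPLA2, PNPLA3 and MGLL, the lipase regulators ABHD5 and G0S2, the coats PLIN2 and PLIN3, and the acyltransferases DGAT1 and DGAT2. They were taken by symbol from a table of 25071 genes, all 10 were present, and all 10 passed the filter on low counts. They were chosen for their function, although earlier results of these data, the fall of LIPE among them, were known. The RNA came from PLC/PRF/5, a cell line grown from a human hepatoma, in 6 libraries. In 3 of them the cells carried a plasmid for overexpression of ARD1, and in 3 a control vector. Both groups were thus transfected cells of 1 line, collected 48 hours later, and the labels do not give the share of cells that took up a plasmid. ARD1 is listed in gene tables as NAA10, and its product is the catalytic part of an acetyltransferase that modifies protein N termini. The study's title concerns escape from ferroptosis, a death driven by lipid peroxidation, and the comparison described here is of the transcripts that handle stored lipid.

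A lipid droplet is a core of triglyceride and sterol ester under a single layer of phospholipid, and its surface proteins decide which enzymes reach the core. DGAT1 and DGAT2 join the last fatty acid to diacylglycerol to make triglyceride. PNPLA2, also called adipose triglyceride lipase, removes the first fatty acid, hormone-sensitive lipase (LIPE) acts mainly on the diacylglycerol left, and MGLL splits the monoacylglycerol. ABHD5 activates PNPLA2 and G0S2 inhibits it. In liver, stored triglyceride is a buffer between fatty acid supply, oxidation and export in lipoproteins.

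The libraries held 21857327 to 25011357 counts, so that 3 counts correspond to 0.120 to 0.137 counts per 1000000 (CPM) of those totals. CPM values of genes use scaled library sizes instead, in which 3 counts in ARD1 replicate 2 correspond to 0.112 CPM. NAA10 stood at 355, 400.2 and 294 CPM in ARD1 libraries and at 35.6, 32.2 and 36.2 CPM in control libraries, as the labels state, although its counts do not separate plasmid from chromosomal transcripts. Control replicate 1 stood apart: compared with the other controls its counts gave chi-square values of 17.1 and 19.9 for each degree of freedom, where those 2 libraries gave 2.95 between them. Of 12 hepatocyte markers, APOA1, APOA2 and TTR were under 1 CPM in every library, as were GPC3 and IGF2 among 4 hepatoma markers. The summed level of the 12 hepatocyte markers was 461 to 497 CPM in ARD1 libraries and 928 to 955 CPM in control libraries. The 2 groups differed widely, since the quasi-likelihood test of edgeR called 64.6% of 15816 genes at an adjusted p under 0.05, with 32.4% of genes higher and 32.2% lower. Differences are relative to the scaling of library sizes by the trimmed mean of M-values (TMM). With library totals alone the median log2 fold change of all genes was 0.30 in place of 0.03, and 68.6% of calls were higher in place of 50.2%.

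Against that background 9 of the 10 genes were called. G0S2 and ABHD5 rose, LIPE, PNPLA3, MGLL, DGAT1, PLIN3, DGAT2 and PLIN2 fell, and PNPLA2 did not pass the test. In the same 9 genes the 2 groups of libraries did not overlap, as in 69.6% of all genes tested. In 2 of the 10 all ARD1 libraries lay above all controls, against 35.6% of genes tested, and in 7 below, against 34%. By at least 1 log2 unit 6 of the 10 were called, against 21.5% of genes tested, 2 of them higher, against 9.71%, and 4 lower, against 11.8%. The median log2 fold change of the 10 was -0.76, beside 0.03 over all genes tested.

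The stretches of promoter that follow are shown for LIPE and G0S2, which moved farthest down and up among the 10, and for PNPLA2 and its activator ABHD5, of which ABHD5 alone was called. They are RefSeq sequence (GRCh38.p14) within the 250 bases before a gene's start, written 5′ to 3′ on the gene's strand and without bases that lie in exons of GENCODE 29. For ABHD5 the bases left out are at the upstream end, where an exon of another of its transcripts ends, so that its stretch lies within the annotated gene. Capitals mark matches to the CAAT box CCAAT, the GC box GGGCGG or the sterol element core TCACNCC, on either strand.
LIPE, chr19:42427427-42427638, minus strand: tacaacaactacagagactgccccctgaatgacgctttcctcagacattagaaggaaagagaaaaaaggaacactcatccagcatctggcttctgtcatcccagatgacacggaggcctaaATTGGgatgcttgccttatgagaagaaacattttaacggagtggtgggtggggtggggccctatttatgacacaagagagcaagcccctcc
G0S2, chr1:209675162-209675411, plus strand: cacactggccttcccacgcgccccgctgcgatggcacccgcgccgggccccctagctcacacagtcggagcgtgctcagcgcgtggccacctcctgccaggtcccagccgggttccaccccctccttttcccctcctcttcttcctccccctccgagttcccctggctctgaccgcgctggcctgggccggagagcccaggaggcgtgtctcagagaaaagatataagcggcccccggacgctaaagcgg
ABHD5, chr3:43690711-43690869, plus strand: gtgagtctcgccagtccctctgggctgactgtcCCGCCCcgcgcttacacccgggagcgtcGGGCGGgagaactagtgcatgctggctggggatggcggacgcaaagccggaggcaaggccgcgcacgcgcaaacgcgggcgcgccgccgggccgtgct
PNPLA2, chr11:818664-818901, plus strand: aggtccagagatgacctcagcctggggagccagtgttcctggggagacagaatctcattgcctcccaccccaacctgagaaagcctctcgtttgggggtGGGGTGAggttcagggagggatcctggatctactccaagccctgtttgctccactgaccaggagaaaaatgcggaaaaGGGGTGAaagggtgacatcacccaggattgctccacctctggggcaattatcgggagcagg

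Of the 10 genes, 6 had a window in the RefSeq table, with 9 starts in all, namely LIPE, PNPLA2, ABHD5, G0S2, PLIN2 and PLIN3. The 3 windows of ABHD5 overlap and share matches, and the second window of LIPE lies wholly in exons, so matches are counted here by gene. The sterol element core was found in 3 of the 6 genes, PNPLA2, ABHD5 and PLIN3. It was in 13.1% of 35116 windows of the table and 13.6% of those of tested genes. In ABHD5 it lay outside the stretch shown, 217 to 211 bases before the start. The GC box was found in 5 genes, against 42.6% of windows in the table and 61.1% of those of tested genes. In LIPE it was found only in the second window, and in PNPLA2 it lay outside the stretch shown, 14 to 9 bases before the start. The CAAT box was found in 2 genes, against 32.0% of windows in the table and 32.7% of those of tested genes. The E-box CACGTG and the TATA box TATAAA were each found in 1 gene, PLIN2. The E-box was in 6.34% of windows in the table and 8% of those of tested genes, the TATA box in 10.7% and 6.42%. A gene with several windows has more chances of a match than 1 window. The G0S2 window held none of these letters, and no match overlapped another. Such matches describe the sequence and say nothing of what binds there.

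**Figure D1:**
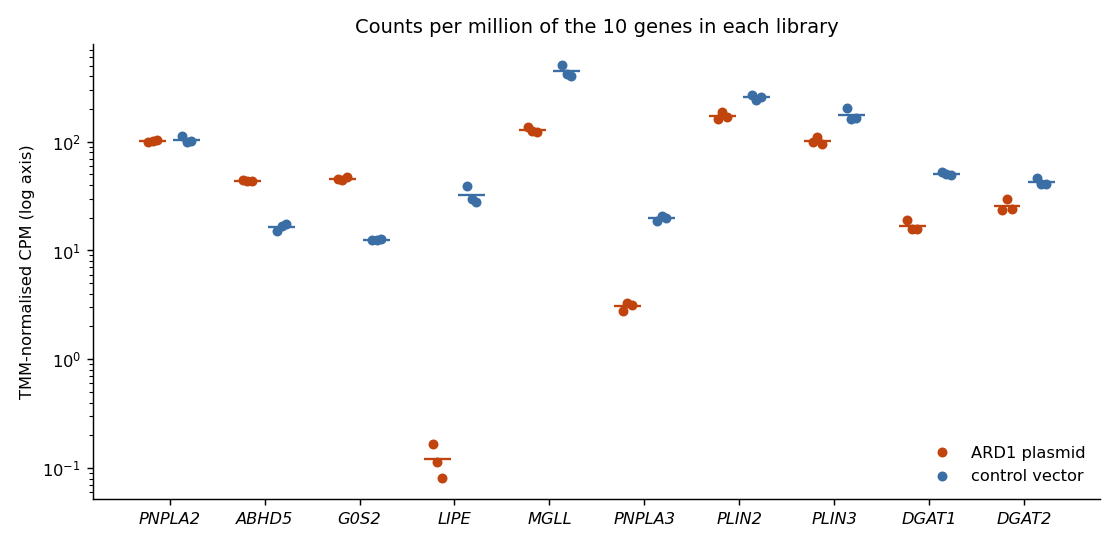
Level of each gene in each library, in TMM-normalised CPM on a log axis, with the ARD1 libraries left of the control libraries and a line at each group's mean (n = 3). The groups overlap in PNPLA2 and in no other gene, and LIPE lies near 0.1 CPM in the ARD1 libraries.

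PNPLA2, the lipase of the first step, was not called, while its activator and its inhibitor both rose. PNPLA2 (ENSG00000177666, chromosome 11, 818902 to 825573, plus strand, GRCh38, GENCODE 29) had 99.3, 100.4 and 103.2 CPM in ARD1 libraries and 113, 99.9 and 101 CPM in control libraries. The groups overlapped, and the log2 fold change was -0.05 (SE 0.073, adjusted p = 0.557). Its direction rests on the scaling, at 0.22 with library totals (adjusted p = 0.00860) and 0.47 with offsets for GC and length (adjusted p = 3.96e-07), and its adjusted p ranged up to 0.962 over the alternatives. Of its exon bases, 10.4% lie opposite exons of AP006621.1, which had 1 to 4 counts in a library.

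ABHD5 (ENSG00000011198, chromosome 3, 43690108 to 43734371, plus strand), which encodes the co-activator CGI-58, had 44.7, 43.7 and 43.4 CPM in ARD1 libraries and 15.0, 16.7 and 17.6 CPM in control libraries. All 3 ARD1 libraries lay above all controls, and the transcript was 2.68-fold higher (log2 fold change 1.42, SE 0.0897, adjusted p = 4.11e-09). Among the 10 genes its longest transcript had the lowest GC content, 37.5%, against 48.9% to 64.5% in the other 9. With GC and length trends removed its log2 fold change was 1.15.

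G0S2 (ENSG00000123689, chromosome 1, 209675420 to 209676388, plus strand), a small protein that binds PNPLA2 and blocks its activity, had 45.1, 44.8 and 47.0 CPM in ARD1 libraries and 12.4, 12.5 and 12.7 CPM in control libraries. The transcript was 3.64-fold higher (log2 fold change 1.87, SE 0.0868, adjusted p = 1.39e-10), the largest rise of the 10. No exon of another gene overlaps it in GENCODE 29.

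A ratio of 2 genes within a library needs no scaling factor, but a trend with GC or length can still move it. The log2 ratio of G0S2 to PNPLA2 counts was -1.15 ± 0.016 in ARD1 libraries and -3.06 ± 0.113 in control libraries (SD, n = 3 each), a difference of 1.91. For ABHD5 over PNPLA2 it was -1.20 ± 0.0495 in ARD1 libraries and -2.67 ± 0.211 in control libraries, a difference of 1.47. Relative to PNPLA2, then, counts of the inhibitor were 3.77-fold and counts of the activator 2.77-fold higher in ARD1 libraries. With offsets for GC and length the log2 differences were 1.52 for the inhibitor and 0.68 for the activator. Of 6 such ratios each separated the groups completely, and each had p = 0.10 in a two-sided exact permutation test, which is also the adjusted value and the smallest that 3 libraries against 3 can give.

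**Figure D2:**
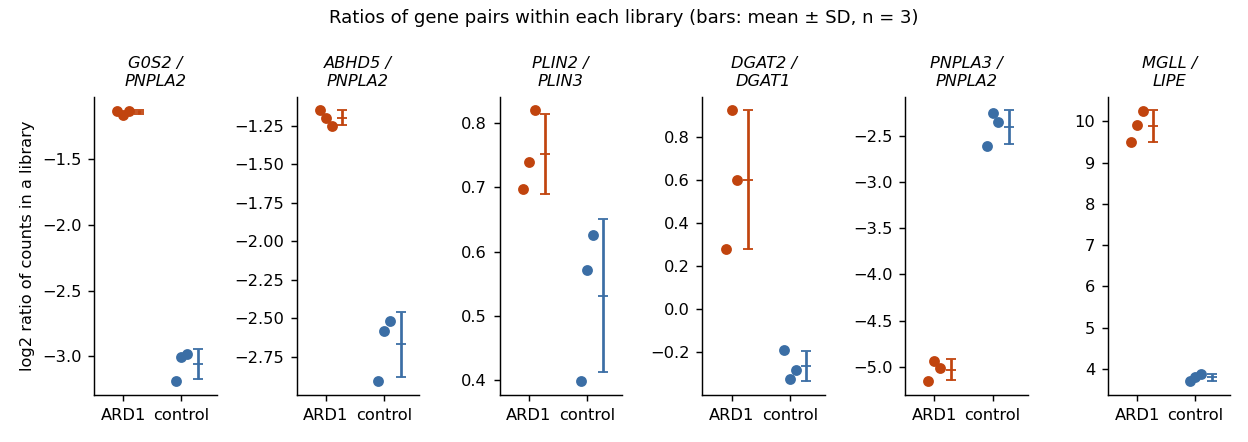
Log2 ratio of counts of 2 genes within each library (0.5 added to each count), 1 panel per pair with its own axis, ARD1 libraries left of control libraries, with bars at mean ± SD (n = 3). In every panel the 3 ARD1 values lie to one side of the 3 control values, with differences from -2.63 for PNPLA3 over PNPLA2 to 6.10 for MGLL over LIPE, the last being 4.88 with 5 added to each count.

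The lipases of the later steps fell, LIPE to a few counts. LIPE (ENSG00000079435, chromosome 19, 42401507 to 42427426, minus strand) had 4, 3 and 2 counts in ARD1 libraries and 865, 629 and 617 counts in control libraries. These correspond to 0.167, 0.112 and 0.0806 CPM in ARD1 libraries, at or near the level of 3 counts, and to 39.4, 29.9 and 27.7 CPM in control libraries. The summed counts, 9 in ARD1 libraries and 2111 in control libraries, give a 271-fold lower level once scaled by the TMM library sizes, with an exact conditional 95% interval of 142 to 593 that covers counting error only. The fitted log2 fold change was -8.02 (SE 0.251, adjusted p = 2.65e-12), and 5 of the 15816 genes tested, LIPE included, were as low or lower.

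The LIPE locus has 2 RefSeq starts, and the counts do not tell transcripts from each apart. Of its exon bases 9.6% lie opposite exons of LIPE-AS1. That antisense gene had 50, 52 and 57 counts in ARD1 libraries and 35, 71 and 49 counts in control libraries, and its log2 fold change of -0.17 was not called (adjusted p = 0.579). In ARD1 libraries more counts were thus assigned to LIPE-AS1 than to LIPE, and in control libraries far fewer.

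LIPE is best known from adipocytes. Of 7 adipocyte markers 4 were among the 25071 genes, and ADIPOQ, LEP and CIDEA were not. The summed level of those 4 was 25.0 to 27.1 CPM in ARD1 libraries and 88.1 to 111 CPM in control libraries. Most of it was PLIN4, a coat protein, at 22.4 ± 1.06 CPM in ARD1 libraries and 81.5 ± 11.9 CPM in control libraries (SD, n = 3 each), and the complement factor CFD also fell (log2 fold change -2.35, adjusted p = 3.04e-09). FABP4, a defining adipocyte marker, had no count in ARD1 libraries and at most 0.135 CPM in a control library. PLIN1, at 0.88 ± 0.50 CPM in ARD1 libraries and 1.32 ± 0.26 CPM in control libraries, was not called (log2 fold change -0.57). All libraries were bulk RNA of 1 hepatoma line, in which fewer cells with a transcript and less of it per cell cannot be told apart. The part of these markers in the fall of LIPE was not tested.

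MGLL (ENSG00000074416, chromosome 3, 127689062 to 128052190, minus strand), the monoacylglycerol lipase, had 135, 126 and 124 CPM in ARD1 libraries and 510, 420 and 404 CPM in control libraries. In control libraries it had more counts than any other of the 10 genes. It was 3.47-fold lower (log2 fold change -1.79, SE 0.0891, adjusted p = 2.93e-10), and all ARD1 libraries lay far below all controls. The log2 ratio of MGLL to LIPE was 9.89 ± 0.387 in ARD1 libraries and 3.79 ± 0.0857 in control libraries (SD, n = 3 each). With so few LIPE counts the difference, 6.10, rests on the 0.5 added to each count, and it was 4.88 with 5 added.

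PNPLA3 (ENSG00000100344, chromosome 22, 43923739 to 43964488, plus strand), a paralogue of PNPLA2 that also sits on droplets and is known to bind ABHD5, had 2.76, 3.26 and 3.18 CPM in ARD1 libraries. In control libraries it had 18.6, 20.9 and 19.8 CPM. The transcript was 6.42-fold lower (log2 fold change -2.68, SE 0.125, adjusted p = 1.44e-10). The log2 ratio of PNPLA3 to PNPLA2 was -5.03 ± 0.113 in ARD1 libraries and -2.40 ± 0.182 in control libraries (SD, n = 3 each), with no overlap. SAMM50, whose exons share 4.58% of the PNPLA3 exon bases on the same strand, fell as well (log2 fold change -1.47, SE 0.089), and reads of the shared bases cannot be told apart.

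Both coats fell. PLIN2 (ENSG00000147872, chromosome 9, 19108375 to 19149290, minus strand), the main droplet coat of hepatocytes, had 160, 186 and 170 CPM in ARD1 libraries and 271, 242 and 255 CPM in control libraries, a 1.49-fold lower level (log2 fold change -0.57, SE 0.0756, adjusted p = 1.05e-05). PLIN3 (ENSG00000105355, chromosome 19, 4838341 to 4867768, minus strand), which moves between cytosol and new droplets, had 98.9, 112 and 96.0 CPM in ARD1 libraries. It had 205, 163 and 165 CPM in control libraries (log2 fold change -0.80, SE 0.0939, adjusted p = 3.18e-06). Neither pair of groups overlapped.

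The log2 ratio of PLIN2 to PLIN3 was 0.75 ± 0.0623 in ARD1 libraries and 0.53 ± 0.119 in control libraries (SD, n = 3 each), a difference of 0.22 that was -0.0461 with offsets for GC and length. With library totals the log2 fold change of PLIN2 was -0.31 (adjusted p = 0.00153, its highest over the alternatives), and with GC and length trends removed PLIN2 was at -0.53 and PLIN3 at -0.48. Exons of AC027319.1, which is not among the 25071 genes, lie opposite 17.8% of PLIN3 exon bases.

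Both enzymes of the last step of triglyceride synthesis fell. DGAT1 (ENSG00000185000, chromosome 8, 144314584 to 144326910, minus strand), an enzyme of the endoplasmic reticulum, had 19.3, 15.7 and 15.9 CPM in ARD1 libraries and 52.3, 50.9 and 49.2 CPM in control libraries (log2 fold change -1.59, SE 0.0959, adjusted p = 2.57e-09). DGAT2 (ENSG00000062282, chromosome 11, 75759512 to 75801535, plus strand), which also acts at the droplet surface, had 23.4, 29.8 and 24.1 CPM in ARD1 libraries. It had 45.9, 40.6 and 40.5 CPM in control libraries (log2 fold change -0.71, SE 0.103, adjusted p = 2.46e-05).

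In neither gene did the groups overlap. The log2 ratio of DGAT2 to DGAT1 was 0.60 ± 0.324 in ARD1 libraries and -0.26 ± 0.0705 in control libraries (SD, n = 3 each), above 0 in every ARD1 library and below 0 in every control library. The difference of 0.87 was 0.49 with offsets for GC and length. With library totals the log2 fold change of DGAT2 was -0.45 (adjusted p = 0.00168, its highest over the alternatives). Of DGAT1 exon bases, 10.9% are shared with AC233992.1 and MIR6848 on the same strand, neither of which is among the 25071 genes.

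**Figure D3:**
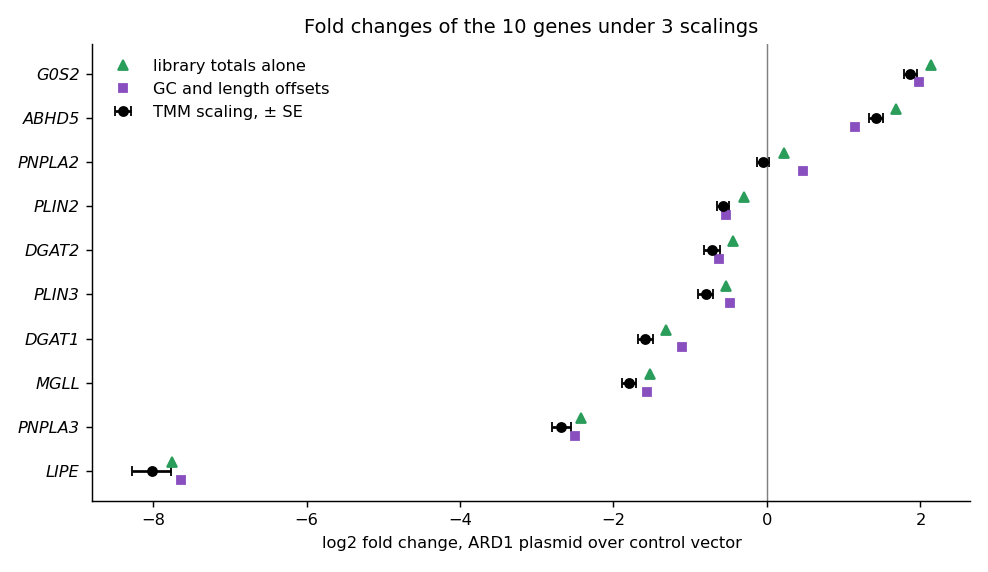
Log2 fold change of each gene, ARD1 plasmid over control vector, under TMM scaling (circle, bar ± SE), library totals alone (triangle) and GC and length offsets (square). PNPLA2 changes sign, from -0.05 to 0.22 and 0.47, and the other 9 genes keep theirs.

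Per kilobase of exon the order of the genes differed between the groups. In ARD1 libraries G0S2 was highest at 52.7 ± 1.41 CPM per kilobase, followed by PLIN3 at 36.3 ± 2.93, PLIN2 at 33.8 ± 2.57 and PNPLA2 at 26.3 ± 0.53 (SD, n = 3). MGLL at 10.8 ± 0.521, ABHD5 at 5.82 ± 0.0902, DGAT1 at 4.10 ± 0.487 and DGAT2 at 3.26 ± 0.446 CPM per kilobase came next. PNPLA3 at 0.95 ± 0.0831 and LIPE at 0.0231 ± 0.00844 CPM per kilobase were last. Among neighbours in this order only PLIN3 and PLIN2 overlapped between libraries.

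In control libraries PLIN3 led at 63.2 ± 8.53 CPM per kilobase of exon, followed by PLIN2 at 50.3 ± 2.86, MGLL at 37.5 ± 4.85 and PNPLA2 at 27.2 ± 1.91 (SD, n = 3). G0S2 at 14.5 ± 0.201 and DGAT1 at 12.3 ± 0.37 CPM per kilobase were in the middle. LIPE at 6.21 ± 1.19, PNPLA3 at 6.11 ± 0.364 and DGAT2 at 5.35 ± 0.393 CPM per kilobase overlapped as neighbours, and ABHD5 was last at 2.18 ± 0.171. Per kilobase, PNPLA2 was thus in place 4 of 10 in both groups, while G0S2 stood above it in ARD1 libraries and below it in control libraries. The lengths are of all exons of a gene in GENCODE 29 joined together. With the longest transcript instead, PLIN2 was first in both groups and 5 of the 10 genes kept their place in control libraries.

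**Figure D4:**
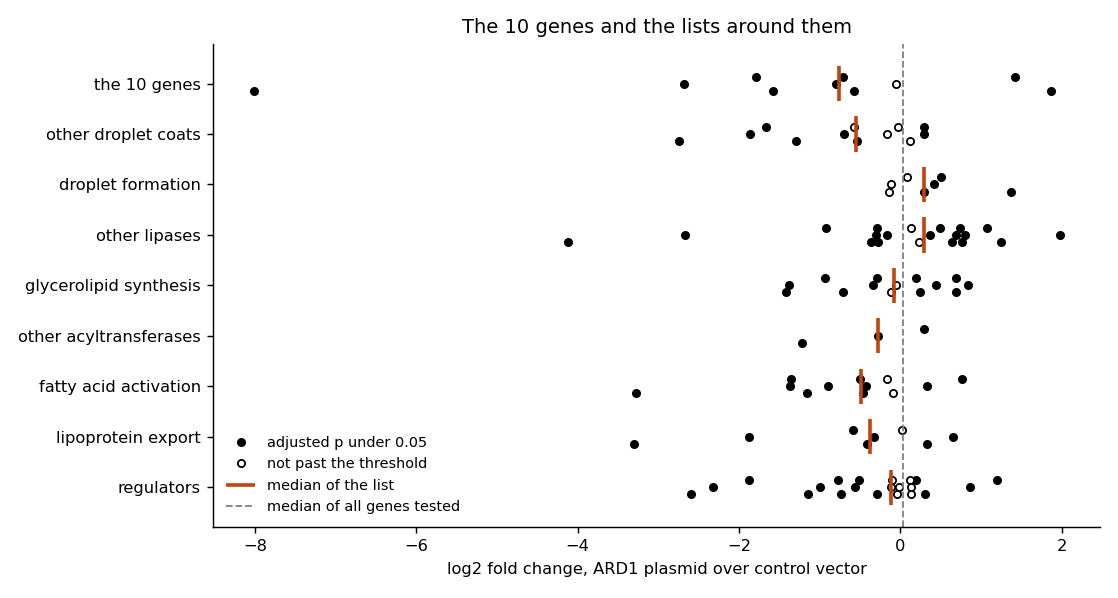
Log2 fold change of every tested gene in the 10-gene set and in 8 lists around it, filled where the adjusted p was under 0.05, with each list's median (bar) and the median of all genes tested (dashed line, 0.03). The median of the 10 genes is -0.76, and those of the lists run from -0.56 for other droplet coats to 0.30 for other lipases.

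The counts of the lists that follow stand beside the 32.2% of all genes tested that were lower and the 32.4% that were higher, which with library totals were 22.0% and 48.1%. Of 12 other droplet coats and surface proteins tested, 6 fell and 2 rose, with a median log2 fold change of -0.56, and with library totals 6 fell and 4 rose. PLIN4 fell most by the rule for named genes (log2 fold change -1.87, SE 0.102, adjusted p = 8.96e-10). CIDEC, which drives lipid exchange between droplets, was at 5.12 ± 0.912 CPM in ARD1 libraries and 16.3 ± 2.37 CPM in control libraries (SD, n = 3 each, log2 fold change -1.67), and METTL7A, another droplet surface protein, was at 23.6 ± 2.56 CPM in ARD1 libraries and 58.0 ± 2.23 CPM in control libraries. The phosphatidylcholine enzyme PCYT1A (0.30) and METTL7B (0.29) rose, METTL7B in 12 of 15 alternatives.

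Of 7 genes of droplet formation at the endoplasmic reticulum, 4 rose, with a median log2 fold change of 0.29. In edgeR's test 0 of the 7 were lower, also at an unadjusted p under 0.05, and 0 in DESeq2 and limma-voom. With GC and length trends removed 4 rose and 2 fell, where 35.8% of genes tested were higher and 31.5% lower. Without control replicate 1 also 4 rose and 2 fell, where 33.2% of genes tested were higher and 34.1% lower. BSCL2, which encodes the droplet assembly protein seipin, was at 5.22 ± 0.236 CPM in ARD1 libraries and 2.03 ± 0.485 CPM in control libraries (SD, n = 3 each, log2 fold change 1.36). It shares 40.6% of its exon bases with genes on the same strand, mainly the read-through gene HNRNPUL2-BSCL2. FITM2, which promotes droplet budding, rose by 0.50 and REEP5 by 0.41 on the log2 scale. LDAF1, outside the rule for named genes, also rose (0.29, in 11 of 15 alternatives), though its groups overlapped.

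The other lipases and ester hydrolases moved both ways. Of 20 tested, 10 rose and 8 fell, with a median log2 fold change of 0.30, and with library totals 11 rose and 3 fell. The secreted hepatic lipase LIPC fell to 1.23 ± 0.23 CPM in ARD1 libraries, against 21.5 ± 0.759 CPM in control libraries (SD, n = 3 each, log2 fold change -4.12). The endothelial lipase LIPG fell by 2.66 and the carboxylesterase CES1, an abundant liver enzyme that also hydrolyses triglyceride, by 0.92 on the log2 scale. PNPLA8, a phospholipase of the same patatin family as PNPLA2, rose to 157 ± 6.73 CPM in ARD1 libraries, against 66.3 ± 17.5 CPM in control libraries (log2 fold change 1.25). The arylacetamide deacetylase AADAC (1.98) and the diacylglycerol lipase DAGLA (1.08) rose too.

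Upstream of the DGAT enzymes, the glycerolipid pathway was split. Of 14 tested genes 6 rose and 6 fell, with a median log2 fold change of -0.08, which was 0.18 with library totals (6 higher and 4 lower). The first acyltransferases GPAT3 (0.84, SE 0.0739) and GPAM (0.69, SE 0.108) and the glycerol kinase GK (0.69) rose. The second acyltransferase AGPAT2 was at 83.4 ± 2.75 CPM in ARD1 libraries and 223 ± 24.6 CPM in control libraries (SD, n = 3 each, log2 fold change -1.42). The phosphatidate phosphatase LPIN1 (-0.93) and the glycerol phosphate dehydrogenase GPD1 (-1.38) fell as well. Of 3 other acyltransferases tested the sterol acyltransferase SOAT1 fell (-0.28), though not with library totals (adjusted p = 0.811). TMEM68 rose (0.29) but was at -0.04 with GC and length trends removed. MOGAT3, under 1 CPM on average in both groups and so outside the rule for named genes, also fell (-1.23). It was called in 11 of 14 alternatives, and not without control replicate 1, ARD1 replicate 1 or ARD1 replicate 3 (adjusted p up to 0.0691).

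Of 12 genes for fatty acid uptake and activation 8 were lower and 2 higher, with a median log2 fold change of -0.48 (6 lower and 2 higher with library totals). The fatty acid transporter CD36 was at 8.29 ± 0.597 CPM in ARD1 libraries and 80.6 ± 13.3 CPM in control libraries (SD, n = 3 each, log2 fold change -3.28). The acyl-CoA binding protein DBI (-1.37) and the acyl-CoA synthetase ACSL5 (-1.35) fell too, while the transporter SLC27A4 rose (0.76). FABP5, a fatty acid binding protein, rose by 0.33, in 11 of 15 alternatives. In lipoprotein export 5 of 8 fell and 2 rose, with a median log2 fold change of -0.37, and with library totals 3 fell and 3 rose. MTTP, which loads triglyceride onto apolipoprotein B, fell to 9.67 ± 1.20 CPM in ARD1 libraries, against 96.0 ± 11.3 CPM in control libraries (log2 fold change -3.31). APOA4 also fell (-1.88), with 43.1% of its exon bases opposite other exons, as did APOE (-0.58, but 0.03 with GC and length trends removed). MIA2, a factor in export of large cargo, rose (0.66), and APOB rose by 0.33, in 5 of 15 alternatives.

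Of 21 regulators tested 10 fell and 4 rose, with a median log2 fold change of -0.12, and with library totals, where the median was 0.15, 9 fell and 9 rose. The oxysterol receptor gene NR1H3 was at 13.5 ± 0.198 CPM in ARD1 libraries and 81.4 ± 5.62 CPM in control libraries (SD, n = 3 each, log2 fold change -2.60). SREBF1, whose product drives fatty acid and triglyceride synthesis genes and, in liver, PNPLA3, fell by 2.32 on the log2 scale and SREBF2, its sterol counterpart, by 1.88. The deacetylase gene SIRT1 (1.19) and CEBPB (0.86), a transcription factor of adipocyte and liver genes, rose. PRKACB, a catalytic subunit of the protein kinase A that phosphorylates LIPE and perilipins, rose by 0.31, but with offsets for GC and length it was at 0.06 (adjusted p = 0.484).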

How the data were processed

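Per the submitters' processing notes, reads were handled with cutadapt 4.6 and STAR 2.7.11b on GRCh38, and per the labels' protocols ribosomal RNA was depleted and a directional kit used. For the counting program, its strand setting and its annotation, the sources used here give no statement. The authors deposited raw counts per gene and library, each gene with at least 2 counts in all. Counting error alone underlies intervals and floors.

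Genes were kept by filterByExpr (15816 of 25071), scaled by TMM and tested with edgeR 4.0.16 (quasi-likelihood, R 4.3.3), with Benjamini-Hochberg adjustment over all genes and a threshold of 0.05. CPM values use TMM-scaled library sizes. Standard errors come from the F statistic. Alternatives used RLE, upper-quartile and no scaling, DESeq2 1.42.0, limma-voom 3.58.1, other filters, loess offsets for GC and exon length, a replicate block, and each library left out. The fits were tested on simulated data in which far fewer genes differed than here. That test does not show how well the scaling holds between groups that differ this widely.

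The 10 genes, 8 pathway lists and 6 marker lists were chosen with earlier results of these data known. From each pathway list up to 3 called genes each way with the largest change and at least 1 CPM in the higher group were named, and up to 2 from marker lists. Whether the libraries are from separate cultures is not said in the labels. The p-values then rest only on how far these libraries differ, which may be technical. Sequences are RefSeq's.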

Additional observations from a re-analysis of the deposited data

How the results depend on the processing

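The 9 called genes kept their direction and call in all 15 alternatives. PNPLA2 reversed to 0.22 with library totals and to 0.47 with GC and length offsets, and the cause was not tested. Requiring at least 1 log2 unit left 3406 of all genes and 4 of the 7 lower genes, by the construction of that threshold. Leaving out each library in turn, called genes numbered 9271 to 10984, higher genes 2 to 2 and lower genes 7 to 7 among the 10. The 6 ratios kept their direction without any 1 library, each with p = 0.2 in the exact permutation test, the smallest that 2 against 3 can give. With GC and length offsets, an alternative chosen after seeing the data, PLIN2 over PLIN3 reversed to -0.0461 and the other 5 ratios kept their direction. With the replicate number as a block 10293 genes were called, 2 higher and 7 lower among the 10. Same-numbered libraries correlated at 0.0168, -0.0356 and 0.0342 in their deviations across genes, and libraries of unlike number at -0.0688 to 0.05. No shared deviation by number was thus seen, which does not settle whether the libraries were prepared in pairs. LIPE, at 2 to 4 counts in ARD1 libraries, is limited by depth.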

Other observations

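Some genes around the PNPLA2 step were outside the rule for named genes and were chosen after their values were seen. HILPDA, a hypoxia-inducible droplet protein that also inhibits PNPLA2, had 13.3, 14.1 and 16.8 CPM in ARD1 libraries and 24.2, 23.1 and 24.4 CPM in control libraries. It fell (log2 fold change -0.70, SE 0.105, adjusted p = 3.93e-05 in edgeR's test), so G0S2 and HILPDA moved in opposite directions. Of HILPDA exon bases, 13.2% are shared with other genes on the same strand. PPARG, a nuclear receptor that drives droplet genes, was at 55.9 ± 3.87 CPM in ARD1 libraries and 124 ± 2.94 CPM in control libraries (SD, n = 3 each, log2 fold change -1.15). Its paralogues did not fall, since PPARA rose by 0.20 on the log2 scale, in 9 of 15 alternatives, and PPARD (0.12) was not called. PLIN5, a coat that binds PNPLA2 and ABHD5, was under 0.2 CPM in every ARD1 library and at 0.50, 1.33 and 0.674 CPM in control libraries (log2 fold change -2.75, adjusted p = 0.000546). These are 2, 5 and 2 counts in ARD1 libraries and 11, 28 and 15 counts in control libraries. Of PLIN5 exon bases, 21.7% are shared with other genes on the same strand.

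The log2 ratio of G0S2 to ABHD5 counts, also chosen after their values were seen, was 0.0121, 0.0342 and 0.116 in ARD1 libraries and -0.28, -0.42 and -0.47 in control libraries, a difference of 0.44. No test was made of it.

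Other marker lists are given as values. The 7 fibroblast markers summed to 18.2 to 20.7 CPM in ARD1 libraries and 78.1 to 98.8 CPM in control libraries, with COL3A1 at -4.80 and LUM at -2.01 on the log2 scale and COL1A1 at 1.55. The 7 immune markers summed to 8.71 to 9.51 CPM in ARD1 libraries and 16.1 to 18.7 CPM in control libraries. Among them PTPRC was at -4.91, with 2, 2 and 0 counts in ARD1 libraries, and ITGAM at -1.20. The 6 endothelial markers summed to 92.5 to 104.5 CPM in ARD1 libraries and 72.7 to 86.1 CPM in control libraries. VWF (5.29, at most 1.63 CPM in any library) and KDR (2.05) were higher. CDH5 (-8.85, with 1, 0 and 4 counts in ARD1 libraries) and LYVE1 (-1.37) were lower. PECAM1, outside the rule for named genes, was also higher (0.82), at 57.7 ± 3.22 CPM in ARD1 libraries and 32.7 ± 4.13 CPM in control libraries. Of these 3 lists the tested markers DCN, PDGFRB, CD14 and STAB2 were not called. Of hepatocyte markers 3 of 9 tested rose, against 32.4% of genes tested, and 5 fell, against 32.2%. Those that rose included FGA (0.72) and SERPINA1, and those that fell were led by TF (-3.22) and ALB (-3.12). SERPINA1 was low, at 2.17 ± 0.52 CPM in ARD1 libraries and 0.54 ± 0.25 CPM in control libraries (SD). Both tested hepatoma markers fell, AFP by 2.42 and SPP1 by 1.04, where 32.2% of genes tested were lower. The part of any of these in the values of the 10 genes was not tested.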
